A study of Mus musculus with 32 samples.

Results

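The move of blood stem and progenitor cells from liver to marrow around birth was followed in 3 Perinatal BM libraries and 3 E16.5 FL libraries, 6 of the 32 ATAC-seq libraries of the series and 6 of the 26 that make up its developmental part. They were chosen by their column names, and only regions on autosomes were described. Both groups were LSK cells of C57BL/6 mice, blood stem and progenitor cells that lack lineage markers and carry Sca-1 and Kit. Perinatal BM cells came from bone marrow labelled perinatal, with no day given, and E16.5 FL cells from the liver of embryos at E16.5. The labels do not say whether libraries came from separate animals, pools or litters, so p-values measure the spread between libraries, which may be technical. The edgeR fits took this spread from all 26 libraries in 9 groups, not from the 6 alone.

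In ATAC-seq the Tn5 transposase inserts sequencing adapters where DNA is open, so counts over a region report its accessibility. Open regions near gene starts act mostly as promoters and are shared by many cell types, while distal open regions include enhancers, which differ more between cell types and stages. In the fetus, blood stem cells multiply in the liver, and around birth they settle in the marrow under guidance of the CXCL12 receptor CXCR4 and of integrins. In adult marrow many of them become quiescent, a state in which TGF-beta signalling takes part.

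The deposited table holds 96960 autosomal regions with a median width of 551 bp over all its regions. Of the autosomal regions, 17592 lay within 1 kb of either end of a named gene and are called gene-end regions, the promoter-like class, and 79368 lay farther away and are called distal. Total counts were 3388381, 5471921 and 3833138 in Perinatal BM and 3341392, 3598975 and 3610065 in E16.5 FL. Levels are counts per 1000000 counts of a library (CPM) after scaling by TMM, and fold changes are log2 ratios of Perinatal BM over E16.5 FL from a quasi-likelihood F test in edgeR, called at a Benjamini-Hochberg adjusted p under 0.05. The first principal component of the 6 libraries, with 37.5% of the variance, put Perinatal BM at 82.6, 129.0 and 84.3 and E16.5 FL at -138.3, -71.7 and -85.9. Perinatal BM 2 and E16.5 FL 1 lay farthest apart, and leaving out either of them lowers most counts of calls by more than 1.5 times, as given below.

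Markers of the sorted cells had counts in every library, but Ly6a, which encodes Sca-1, was near the floor of the table. Ptprc, the gene of the pan-leukocyte antigen CD45, had 108, 136 and 121 CPM over its distal regions in Perinatal BM, against 71.2, 95.4 and 80.0 CPM in E16.5 FL. Its log2 fold change of 0.57 (SE 0.13, adjusted p = 0.003, quasi-likelihood F test in edgeR) was not called with the loess scaling described below (adjusted p = 0.085). Kit, the stem cell factor receptor, had 38.9, 39.1 and 52.5 CPM in Perinatal BM and 55.8, 50.8 and 62.6 CPM in E16.5 FL (log2 fold change -0.38, adjusted p = 0.15). These are sums over 14 distal regions, and the median of single distal regions was 4.13 CPM, so they do not show that Kit stood out. Over 2 gene-end regions Kit had 34.0, 47.2 and 36.7 CPM in Perinatal BM and 24.8, 39.8 and 31.8 CPM in E16.5 FL. Ly6a had 1 region, at 2.61, 2.57 and 4.56 CPM in Perinatal BM and 2.46, 2.50 and 3.91 CPM in E16.5 FL.

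Of the lists for other cell types, some overlapped between the groups and some did not. Summed over all regions of 11 hepatocyte genes with a region, of 16 listed, accessibility was 195 to 204 CPM in Perinatal BM and 175 to 195 CPM in E16.5 FL (two-sided exact permutation p = 0.2, n = 3 each). Alb, the albumin gene of hepatocytes, had 15.1, 15.97 and 17.0 CPM in Perinatal BM and 19.7, 14.3 and 17.9 CPM in E16.5 FL over its distal regions (log2 fold change -0.11, adjusted p = 0.83). Sums over 19 marrow stroma and bone genes of 20 were 760 to 806 CPM in Perinatal BM and 672 to 782 CPM in E16.5 FL, and those over 16 endothelial genes were 789 to 834 CPM in Perinatal BM and 769 to 786 CPM in E16.5 FL. Sums over 13 erythroid genes of 19 were 599 to 679 CPM in Perinatal BM and 540 to 583 CPM in E16.5 FL. Sums over 12 genes of 18 chosen as silent in blood were also higher, at 357 to 407 CPM in Perinatal BM and 312 to 336 CPM in E16.5 FL (exact permutation p = 0.1, the smallest that 3 against 3 allow). Sums for blood lineages were compared too, and those that lay apart did so in the direction of the silent list. Sums over 19 cell cycle genes lay apart in the same way, at 1785 to 1824 CPM in Perinatal BM and 1389 to 1690 CPM in E16.5 FL. Sums that lay apart were therefore not particular to lineages. TMM factors were 1.0161, 0.9955 and 1.0294 in Perinatal BM and 1.2184, 1.1095 and 1.1328 in E16.5 FL. Levels divide by these factors, so the summed CPM of the whole table was also higher in every Perinatal BM library. Sums that lay apart in that direction are therefore not read as results about their lists. Sums over 17 monocyte genes were 932 to 1072 CPM in Perinatal BM and 828 to 860 CPM in E16.5 FL, those over 16 lymphoid genes were 1338 to 1453 CPM in Perinatal BM and 1058 to 1211 CPM in E16.5 FL, and those over 9 mast cell genes were 237 to 264 CPM in Perinatal BM and 213 to 225 CPM in E16.5 FL. Neutrophil genes, at 582 to 636 CPM in Perinatal BM and 503 to 587 CPM in E16.5 FL, and T and NK genes, at 646 to 705 CPM in Perinatal BM and 623 to 661 CPM in E16.5 FL, overlapped. Megakaryocyte genes stood at 1365 to 1376 CPM in Perinatal BM and 1064 to 1153 CPM in E16.5 FL. Myh7 of the silent list and Camp of the neutrophil list were at 0 in a library, and the part of other cells in the results below was not tested.

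Most regions that changed were more accessible in Perinatal BM, and the ones that rose were those of high level. Of 79330 distal regions tested, 3832 rose (4.83%) and 1157 fell (1.46%). Of 17591 gene-end regions, 2546 rose (14.5%) and 179 fell (1.02%). In bulk cells, a larger share of cells with an open region and wider opening in each cell cannot be told apart. The median level of the distal regions that rose was 17.5 CPM and of those that fell 4.29 CPM, beside 4.13 CPM over all distal regions tested. Without E16.5 FL 1 the distal counts were 1484 higher and 382 lower, and the gene-end counts 832 and 55. Without Perinatal BM 2 they were 1484 and 377, and 1108 and 45. Perinatal BM 2 was the highest of the 6 libraries in 2348 of the 3832 distal regions that rose, and E16.5 FL 1 the lowest in 2279 of them.

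The fold change followed the level of a region throughout. In 5 equal classes of all autosomal regions by mean level over the 26 libraries, the median log2 fold change of distal regions was -0.68 in the lowest class and 0.48 in the highest, and that of gene-end regions -0.76 and 0.34. In the highest class 29.8% of distal regions rose and 2.27% fell, and in the lowest 0.0107% rose and 1.20% fell. That class held 63.6, 64.8 and 63.8% of autosomal counts in Perinatal BM and 54.1, 59.9 and 57.9% in E16.5 FL (64.0 ± 0.64% in Perinatal BM and 57.3 ± 2.9% in E16.5 FL, SD, n = 3 each, two-sided exact permutation p = 0.1). When the trend with level was removed between libraries by cyclic loess, 825 distal regions were called higher (1.04%) and 516 lower (0.65%), of which 808 and 396 were called the same way with TMM. At gene ends the loess calls were 92 higher (0.523%) and 317 lower (1.8%). Among distal calls 76.8% were gains by TMM, 61.5% by loess and 51.2% by total counts, and among gene-end calls 93.4%, 22.5% and 77.3%. The median log2 fold change of all distal regions was -0.11 with TMM, 0.02 with loess and -0.30 with total counts, and that of gene-end regions 0.17, -0.11 and -0.02. Most list counts below are therefore given with both scalings. With loess 3.56% of all genes rose and 2.56% fell over distal counts, and 2.24% and 2.54% over gene ends. The general excess of higher calls at gene ends holds only relative to the scaling chosen.

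**Figure D1:**
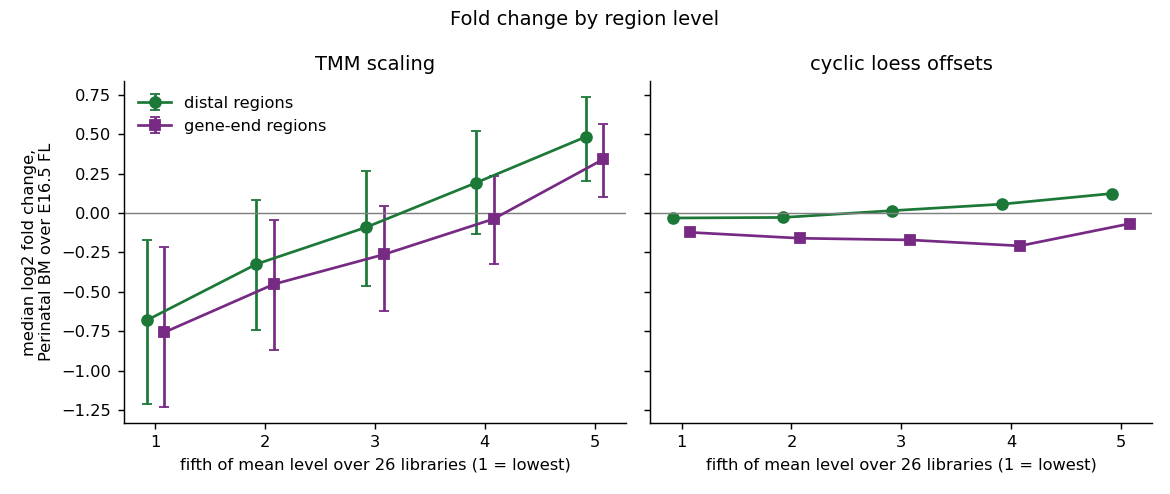
Median log2 fold change of Perinatal BM over E16.5 FL (vertical axis) in 5 classes of regions by mean level over 26 libraries (horizontal axis, 1 the lowest), for distal and gene-end regions, with TMM scaling on the left (bars: interquartile range) and cyclic loess offsets on the right. With TMM the distal medians climb with level between -0.68 and 0.48, and with loess they lie between -0.03 and 0.12.

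Gene ends took a larger share of the counts in every Perinatal BM library. They held 41.5, 42.5 and 42.0% of autosomal counts in Perinatal BM and 35.7, 40.3 and 38.3% in E16.5 FL, or 42.0 ± 0.50% in Perinatal BM and 38.1 ± 2.3% in E16.5 FL (SD, n = 3 each), a difference of 3.92 percentage points (two-sided exact permutation p = 0.1). The groups did not overlap. Regions that touch a gene end rose in 18.9% of cases and fell in 0.642%, those within 1 kb of one rose in 6.90%, and those over 50 kb away in 4.91%. With loess the order turned, at 0.534% higher and 2.04% lower at a gene end against 1.33% and 0.710% over 50 kb away. Outside chromosome 18, for which no starts were used, 11750 gene-end regions lay within 1 kb of a RefSeq start, and 2011 of them rose and 74 fell. Of the 5373 gene-end regions farther from a start, 459 rose and 102 fell. Distal regions can also hold a start that is not an end of a named span: 4964 lay within 1 kb of a RefSeq start, of which 10.5% rose, beside 4.41% of the 71585 farther away, and with loess 1.03% and 1.04%.

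**Figure D2:**
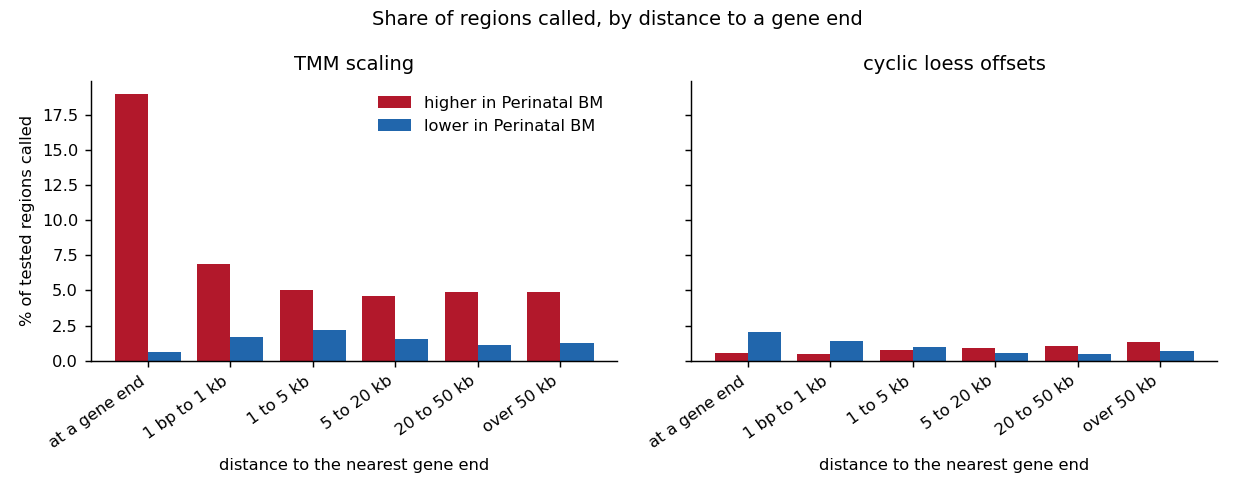
Share of tested regions called higher (red) or lower (blue) in Perinatal BM (vertical axis, percent) by distance to the nearest gene end (horizontal axis), with TMM scaling on the left and cyclic loess offsets on the right. With TMM 18.9% of regions touching a gene end are higher, and with loess 0.534%.

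The authors' peak lists, called per library, differed more in number among distal peaks than among gene-end peaks. Distal peaks numbered 13283, 26664 and 14939 in Perinatal BM and 3507, 7735 and 6664 in E16.5 FL, a ratio of means of 3.07. Gene-end peaks numbered 10155, 13229 and 11189 in Perinatal BM and 5627, 8837 and 8140 in E16.5 FL, a ratio of 1.53. Gene ends therefore made up 43.3, 33.2 and 42.8% of peaks in Perinatal BM, against 61.6, 53.3 and 55.0% in E16.5 FL. Each of these gave a two-sided exact permutation p of 0.1 (n = 3 each), and peak numbers depend on library depth and enrichment as well as on the cells.

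Liver and marrow were compared again in libraries that the first comparison did not use, 1w BM against E12.5 FL, marrow at 1 week of age and liver of embryos at E12.5. There 6079 distal regions rose (7.66%) and 4073 fell (5.13%), and 3369 gene-end regions rose (19.2%) and 535 fell (3.04%). Of the 3832 distal regions that rose in Perinatal BM, 3646 (95.1%) were also higher in 1w BM, beside 41.2% of all distal regions tested, and 2291 (59.8%) were called higher. Of the 1157 that fell, 1057 (91.4%) were also lower, beside 58.8%, and 402 (34.7%) were called. At gene ends 2519 of 2546 regions that rose were higher in 1w BM (98.9%, beside 66.0%) and 166 of 179 that fell were lower (92.7%, beside 34.0%). Level was not held fixed in these shares. With loess in both comparisons, 741 of 825 distal regions that rose (89.8%) and 492 of 516 that fell (95.3%) kept their direction, beside 50.04% of all distal regions tested that were higher and 49.96% that were lower.

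The gene-end regions that rose and led by p lay at genes of several kinds. The region over a start of Wfs1 (chr5:36988782-36989338), which encodes wolframin, a protein of the endoplasmic reticulum, had 62.4, 70.1 and 55.2 CPM in Perinatal BM and 26.5, 28.0 and 19.1 CPM in E16.5 FL. Its log2 fold change was 1.35 (SE 0.17, adjusted p = 1.2e-06, quasi-likelihood F test in edgeR) and 0.84 with loess (adjusted p = 0.00052). Groups that do not overlap were part of the rule that named the gene-end regions given here. A region 97 bp from an end of Skil (chr3:31093551-31094961), a repressor of SMAD signalling and itself a TGF-beta target, had 123, 167 and 135 CPM in Perinatal BM and 56.7, 68.9 and 75.6 CPM in E16.5 FL (log2 fold change 1.08, adjusted p = 6.1e-06; 0.48 with loess, adjusted p = 0.029). Plscr2 (1.89), B3galnt2 (1.15), Ctla2b (1.45) and Triqk (1.40) also rose, and all 6 kept their call with loess and without any single library. Plscr2 and Ctla2b have close relatives in the genome, so their counts are uncertain.

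Promoter windows of RefSeq starts (build GRCm38.p6, 250 bases before to 50 after the start) were read where they overlapped a tested gene-end region by at least 150 bp. They are shown for Wfs1, the leading gene-end region that rose, for Hmgcs1 and Bcl3, the leading genes of the sterol and JAK-STAT groups described below, and for Hoxa5, whose gene-end region fell. Capitals mark matches on either strand to any of 8 motifs searched, and adjacent matches run together. The KLF/SP motif was searched as GGGCGG and the box bound by NF-Y as CCAAT. The ETS factors were searched as CCGGAA and the AP-1 factors as TGANTCA. For GATA factors the letters were AGATAA, and for STAT factors they were TTCNNNGAA. RUNX factors were searched as TGTGGT, and CEBP factors as TTGCNNAA. The windows are chr5:36988933-36989232 on the minus strand for Wfs1, chr13:119690101-119690400 on the plus strand for Hmgcs1, chr7:19822706-19823005 on the minus strand for Bcl3 and chr6:52204538-52204837 on the minus strand for Hoxa5.
Wfs1: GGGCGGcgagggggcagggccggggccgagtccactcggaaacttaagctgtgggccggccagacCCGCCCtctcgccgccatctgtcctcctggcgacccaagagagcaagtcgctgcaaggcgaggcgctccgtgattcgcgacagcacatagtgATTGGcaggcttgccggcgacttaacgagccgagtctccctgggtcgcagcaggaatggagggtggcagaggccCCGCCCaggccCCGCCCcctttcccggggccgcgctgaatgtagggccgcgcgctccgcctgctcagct
Hmgcs1: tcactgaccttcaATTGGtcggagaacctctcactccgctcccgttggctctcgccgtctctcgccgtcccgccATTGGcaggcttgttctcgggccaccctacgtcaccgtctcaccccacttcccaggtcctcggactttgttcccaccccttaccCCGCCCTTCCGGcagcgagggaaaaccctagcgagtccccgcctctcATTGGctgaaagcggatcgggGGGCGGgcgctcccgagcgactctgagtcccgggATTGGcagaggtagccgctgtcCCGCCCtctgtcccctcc
Bcl3: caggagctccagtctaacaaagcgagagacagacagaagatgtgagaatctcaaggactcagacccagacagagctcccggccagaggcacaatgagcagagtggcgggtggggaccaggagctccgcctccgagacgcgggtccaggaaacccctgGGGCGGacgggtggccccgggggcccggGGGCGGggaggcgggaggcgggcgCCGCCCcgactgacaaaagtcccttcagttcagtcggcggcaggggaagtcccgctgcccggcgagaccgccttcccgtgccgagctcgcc
Hoxa5: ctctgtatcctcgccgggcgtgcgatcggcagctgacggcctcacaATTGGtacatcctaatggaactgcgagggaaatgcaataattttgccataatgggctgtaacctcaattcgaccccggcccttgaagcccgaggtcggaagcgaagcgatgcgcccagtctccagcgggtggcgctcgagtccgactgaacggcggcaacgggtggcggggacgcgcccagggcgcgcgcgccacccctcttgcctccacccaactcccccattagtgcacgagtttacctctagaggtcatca

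The Wfs1 window holds 4 KLF/SP matches and 1 CCAAT match, that of Hmgcs1 4 CCAAT, 3 KLF/SP and 1 ETS match, that of Bcl3 3 KLF/SP matches and that of Hoxa5 1 CCAAT match. Among 2380 windows on regions that rose, 77.9% held GGGCGG, beside 69.0% of 11381 windows on all tested gene-end regions, 45.7% of 46 on regions that fell and 35.7% of 32851 RefSeq windows in all. CCAAT stood in 48.5% of windows that rose, 23.9% of those that fell, 37.5% of those tested and 37.4% of all. CCGGAA stood in 32.9% of windows that rose, 19.6% of those that fell, 28.5% of those tested and 14.9% of all. With loess its direction turned, at 17.3% of the 52 windows called higher and 29.1% of the 258 called lower. With loess GGGCGG stood in 71.2% of windows called higher and 63.2% of those called lower, and CCAAT in 40.4% and 29.8%. The mean GC content was 64.2% in windows that rose and 62.6% in those tested. TGANTCA stood in 4.58% of windows that rose and 4.47% of those tested, and in 13.5% of the windows called higher and 1.94% of those called lower with loess. Over all RefSeq windows it stood in 7.81%. TTCNNNGAA stood in 6.76% of windows that rose, 6.32% of those tested and 8.30% of all, and with loess in 17.3% of those higher and 6.59% of those lower. The GATA motif stood in 4.58% of windows that rose with TMM scaling, 5.26% of those tested and 11.2% of all. For the RUNX motif these shares were 11.2, 11.9 and 16.8%, and for the CEBP motif 7.10, 7.15 and 10.8%. With loess the windows called higher held the GATA motif in 1.92%, the RUNX motif in 21.2% and the CEBP motif in 5.77%, and those called lower in 5.43, 12.4 and 10.9%. A match is a description of the letters and no evidence of binding.

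Several of the gene-end regions that fell lay away from the start of a gene while a region over a start of the same gene did not pass the test. The region 916 bp beyond an end of H3f3b (chr11:116019274-116021045), one of the genes of the replacement histone H3.3, had 11.9, 9.91 and 22.0 CPM in Perinatal BM and 60.2, 84.4 and 68.2 CPM in E16.5 FL (log2 fold change -2.29, SE 0.29, adjusted p = 1.2e-06). The region over a start of H3f3b (chr11:116023957-116024952) had 66.5, 56.9 and 76.8 CPM in Perinatal BM and 46.9, 69.9 and 65.3 CPM in E16.5 FL (0.13, adjusted p = 0.68). The first region was also low in 1w BM, at 16.53 ± 3.5 CPM, but 3w BM stood at 56.9 ± 11 CPM (n = 2), close to the 70.9 ± 12 CPM of E16.5 FL (SD, n = 3).

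Beside Malat1, the gene of an abundant nuclear long non-coding RNA, a region 7141 bp from a start (chr19:5794638-5795531) had 6.68, 4.41 and 5.07 CPM in Perinatal BM and 25.8, 21.3 and 28.1 CPM in E16.5 FL (log2 fold change -2.24, adjusted p = 3.9e-05). A region over its start had a log2 fold change of -0.97 (adjusted p = 0.086), and one 654 bp from the start -0.00. Here, too, the later marrow groups stood at 16.3 to 39.8 CPM, with 6.83 CPM in 1w BM. Similar pairs were found at Hnrnpa3, a splicing factor gene (-1.30 beside its far end, 0.39 over its start with adjusted p = 0.15), and at Atf4, the transcription factor of the integrated stress response (-1.78 and -0.09). At Aff4, a scaffold of transcription elongation, the region that fell (-1.81) lay 716 bp from the start and the region over the start had a log2 fold change of 0.40 (adjusted p = 0.23). Aff4 was not lower in 1w BM against E12.5 FL (-0.39, adjusted p = 0.41), while the other 5 named regions were. A region 158 bp from a start of Bmp7, a bone morphogenetic protein, had 37.2, 24.97 and 28.1 CPM in Perinatal BM and 67.5, 66.4 and 72.6 CPM in E16.5 FL (-1.20, adjusted p = 8.6e-05). All 6 kept their call with loess and without any single library. They were chosen as the leading 6 regions, so how common this pattern is among the 179 was not tested.

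The distal regions that rose and led by p lay at genes of several kinds, and all 10 named kept their call with loess and without any single library. A region in Eef2k (chr7:120851381-120852151), the kinase that restrains translation elongation, had 58.1, 75.3 and 73.5 CPM in Perinatal BM and 17.4, 23.5 and 28.4 CPM in E16.5 FL (log2 fold change 1.58, SE 0.19, adjusted p = 3.7e-07, quasi-likelihood F test in edgeR), and it lay 192 bp from an annotated start. A region outside Nid1 (chr13:13528972-13529483), a basement membrane protein, had 35.7, 61.1 and 40.3 CPM in Perinatal BM and 7.86, 9.27 and 12.7 CPM in E16.5 FL (2.21, SE 0.27, adjusted p = 6.4e-07). In both cases every Perinatal BM library lay above every E16.5 FL library, which was part of the rule that named the distal regions given here.

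Inside Arid3a, a transcription factor of fetal and B-lymphoid haematopoiesis, a region (chr10:79936801-79937594) had 9.59, 49.9 and 42.8 CPM in Perinatal BM and 3.68, 6.26 and 8.31 CPM in E16.5 FL (2.51, SE 0.31, adjusted p = 9.2e-07). Perinatal BM 1 stayed close to the liver level here. In 1w BM the region stood at 56.3 ± 10 CPM and in 8w BM at 81.5 ± 11 CPM, so Perinatal BM lay between liver and later marrow. The other named regions lay at Pkd1l2 (2.42), Plekha2 (1.92), Mrpl14 (1.95, 48180 bp from the gene), Irf2bpl (1.74, 46516 bp from the gene and over another RefSeq start), Asprv1 (1.70), Ski (1.53) and Dab2ip (1.39), the last a regulator of Ras and NF-kB signalling.

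The levels of the 10 distal regions named as lower varied together across libraries. A region in Cdk8 (chr5:146260863-146261446), the Mediator kinase, had 272, 181 and 235 CPM in Perinatal BM and 462, 522 and 492 CPM in E16.5 FL (log2 fold change -1.10, SE 0.16, adjusted p = 7.7e-06). The 10 had mean levels of 22.6 to 361 CPM; a level above the median was part of the rule that named them, and the median of all 1157 regions that fell was 4.29 CPM. Over the other 20 libraries, with the 6 left out, the correlation between pairs of them ran from 0.482 to 0.990 with a median of 0.940, given as a description. The others lay at Crlf2 (-1.38), Filip1l (-1.14), Camk1d (-1.13), Sfi1 (-1.02), Apbb1ip (-1.15), Atp6v1h (-1.71), Fbln1 (-1.21), Fbxw4 (-1.79) and Cspg5 (-1.23). All 10 kept their call with loess and without any single library, and were also lower in 1w BM against E12.5 FL. Sfi1 has repeated copies and its counts are uncertain.

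Summed over distal regions within 50 kb, 1204 of 13216 genes rose (9.11%) and 563 fell (4.26%), and with loess 471 rose (3.56%) and 338 fell (2.56%). Without E16.5 FL 1 the counts were 390 and 140, and without Perinatal BM 2 they were 425 and 128. Gains made up 68.1% of these calls by TMM, 58.2% by loess and 25.5% by total counts. Over gene-end regions, 3196 of 13089 genes rose (24.4%) and 253 fell (1.93%), and with loess 293 rose (2.24%) and 333 fell (2.54%). Without E16.5 FL 1 these counts were 1542 and 102, and without Perinatal BM 2 they were 2048 and 109. Gains made up 92.7% by TMM, 46.8% by loess and 74.9% by total counts.

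The largest distal gains per gene rested on several regions in some genes and on a single one in others. Nid1 rose over 5 of 10 regions, with 132, 211 and 149 CPM in Perinatal BM and 57.7, 65.4 and 75.1 CPM in E16.5 FL (log2 fold change 1.32, SE 0.16, adjusted p = 2.3e-06). It stood at 185 to 231 CPM in all later marrow groups. Btd, which encodes the biotin-recycling enzyme biotinidase, rose by 1.75 (SE 0.24, adjusted p = 9e-06), but its whole gain came from 1 region in the gene body (chr14:31661908-31662733). That region had 160.0, 134 and 114 CPM in Perinatal BM and 40.0, 34.1 and 19.3 CPM in E16.5 FL (log2 fold change 2.13, adjusted p = 2.3e-06). It was back at 30.6 ± 17 CPM in 1w BM, had been at 82.4 ± 38 CPM in the LSK cells labelled E12.5 PL, and was at 12.2 ± 0.75 CPM in 8w BM.

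Stam2 (1.57), Fras1 (1.54), Elmod3 (1.33), Itprip (1.26) and Clstn2 (1.25) resembled Btd, with 1 region called each that held 81.7 to 104.9% of the gene's difference. None of the 6 leading regions was called in 1w BM against E12.5 FL (log2 fold change -0.95 to -0.07). Their levels correlated over the 26 libraries (r = 0.904 to 0.979) and over the 20 others (r = 0.872 to 0.975). With their mean, 86 autosomal regions correlated at r of at least 0.9, of which 85 were distal, 77 were called higher and 0 lower in Perinatal BM. Of all distal regions tested, 4.83% were called higher and 1.46% lower. The 6 came from genes named as higher in Perinatal BM, so the direction of regions that follow them was largely set in advance. These correlations are descriptions of libraries that share depth and preparation. Elmod3 lost its call without Perinatal BM 1 (and without E16.5 FL 3). Prps1l1 (1.33) also rested on 1 called region, with 92.4% of its difference, but that region was called higher in 1w BM against E12.5 FL as well (1.22, adjusted p = 0.00078). Mmp19 (1.14) and Fstl1 (1.14) were also named, and the leading region of Fstl1, with 78.6% of its difference, was not called in 1w BM against E12.5 FL (0.13).

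Genes with the largest distal losses were Atp6v1h (-1.64), a subunit of the proton pump of lysosomes, Tmem125 (-1.45), Ly6c2 (-1.35), Vmn2r129 (-1.33), Kctd16 (-1.20), Rabepk (-1.09), Cdk8 (-1.07), Muc3 (-1.06), Fbln1 (-1.02), Vmn1r238 (-1.01), Lamb1 (-1.01) and Trpm8 (-0.997). All 12 were also called lower with loess. For Cdk8, Kctd16, Atp6v1h and Fbln1, 1 region each held 92.1 to 99.8% of the difference. Ly6c2 and the Vmn genes belong to families of near copies, and their counts are uncertain. Assignment within 20 kb turned Ly6c2 to 0.13 and ended the call of Fbln1. Rabepk, Muc3, Vmn1r238, Lamb1 and Trpm8 lost their call without Perinatal BM 2, and Lamb1 and Trpm8 also without E16.5 FL 1, Lamb1 without E16.5 FL 3 too.

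Over gene-end counts the leading gains were at Ldlrad4 (1.62), an inhibitor of TGF-beta signalling, Gprin3 (1.51), Triqk (1.40), Wfs1 (1.35), Ctla2b (1.32), Retreg1 (1.32), a receptor of endoplasmic reticulum autophagy, Kcnn4 (1.29), a calcium-activated potassium channel, and Map9 (1.28). All 8 were also called higher with loess. Ldlrad4 had 19.5, 67.2 and 36.2 CPM in Perinatal BM and 11.8, 13.5 and 15.4 CPM in E16.5 FL, with Perinatal BM 2 far above the other libraries. The leading losses were at H3f3b (-2.30), Bmp7 (-1.21), Iqcn (-1.17), Hoxc10 (-0.99), Slc22a29 (-0.88), Lrrc45 (-0.85), Lars2 (-0.80) and Duxf3 (-0.78), all 8 also called lower with loess. Hoxc10, a posterior Hox gene, had 23.8, 22.9 and 19.5 CPM in Perinatal BM and 36.6, 47.3 and 47.7 CPM in E16.5 FL. At Lars2 the loss lay in a region beside its far end (-0.94) and the start was at 0.33 (adjusted p = 0.38). Duxf3 belongs to a multi-copy family, is uncertain, and lost its call without E16.5 FL 1 or Perinatal BM 2.

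Of 18 genes of TGF-beta signalling and its SMAD feedback, 6 rose and 0 fell over distal counts, beside 9.11% and 4.26% of all genes. With loess 4 rose and 1 fell, beside 3.56% and 2.56% of all genes, and the median log2 fold change with TMM was 0.23, beside -0.03 over all genes. Over gene-end counts 11 of 18 rose and 1 fell, beside 24.4% and 1.93% of all genes, and with loess 2 rose and 0 fell, beside 2.24% and 2.54%. The gene-end median was 0.54 with TMM, beside 0.22, and 0.17 with loess, beside 0.00 over all genes. The list was chosen with earlier results of these data known, so it is no independent evidence of its direction. Ski, a co-repressor that binds SMADs, had 232, 367 and 296 CPM over its distal regions in Perinatal BM and 107, 141 and 144 CPM in E16.5 FL. The groups did not overlap, and the log2 fold change was 1.19 (SE 0.14, adjusted p = 7.3e-07) and 0.89 with loess (adjusted p = 2.4e-06). Of 11 distal regions of Ski, 7 rose, 5 of them also with loess.

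Smad7, the inhibitory SMAD that blocks the receptor, had 190.0, 321 and 263 CPM in Perinatal BM and 146, 122 and 134 CPM in E16.5 FL (log2 fold change 0.95, SE 0.13, adjusted p = 1.7e-05). Pmepa1, which removes receptor SMADs from signalling, had 151, 339 and 229 CPM in Perinatal BM and 90.4, 117 and 107 CPM in E16.5 FL (1.20, SE 0.22, adjusted p = 0.00034). Both groups stood apart in each gene, with Perinatal BM 2 the highest library, and both genes kept their call with loess (0.64 and 0.90) and without any single library. Over gene ends Skil had 152, 241 and 179.7 CPM in Perinatal BM and 74.9, 86.1 and 90.0 CPM in E16.5 FL (1.19, SE 0.15, adjusted p = 1.1e-07). Pmepa1 rose there too (1.12) and both kept their call with loess, while those of Ski (0.78) and of Bambi (0.70), a pseudoreceptor that dampens TGF-beta, were lost, that of Bambi also with a 500 bp window. Tgfb1, the ligand, rose over distal counts (0.59) but not with loess (adjusted p = 0.14) or without Perinatal BM 2. The single loss, named after its values were seen, was at a gene end of Ltbp3, which binds latent TGF-beta (-1.27, adjusted p = 0.0062, and 0.051 with loess).

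Immediate early genes, the first to respond to growth factors and stress, rose in 14 of 23 over distal counts, beside 9.11% of all genes, and fell in 0, but with loess 2 rose. Their median log2 fold change was 0.47 beside -0.03 over all genes. Nr4a1, an orphan nuclear receptor linked to stem cell quiescence, had 151, 193 and 182 CPM in Perinatal BM and 75.4, 116 and 108 CPM in E16.5 FL (log2 fold change 0.82, SE 0.13, adjusted p = 6e-05; 0.54 with loess, adjusted p = 0.0024). Its leading region (chr15:101258270-101258892) had 29.0, 45.0 and 38.3 CPM in Perinatal BM and 8.84, 14.0 and 16.4 CPM in E16.5 FL (1.52). Egr2 had 105, 108 and 104 CPM in Perinatal BM and 72.5, 69.4 and 59.4 CPM in E16.5 FL (0.66, adjusted p = 0.00065), and was the other call kept with loess. Dusp2 (0.62), a MAP kinase phosphatase, and Nr4a3 (0.50) lost theirs with loess and without E16.5 FL 1, and Nr4a3 also without Perinatal BM 2. Over gene ends 9 of 24 rose, beside 24.4% of all genes, and 0 fell, and with loess 1 rose, Nr4a2, at 36.0, 59.3 and 38.0 CPM in Perinatal BM and 21.4, 20.3 and 21.3 CPM in E16.5 FL (1.10, adjusted p = 4.7e-05). Nr4a1 (0.88), Atf3 (0.74) and Junb (0.59) rose there with TMM.

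Genes of marrow homing and adhesion rose in 7 of 18 and fell in 1 over distal counts, beside 9.11% and 4.26% of all genes, and in 4 and 0 with loess, with a median log2 fold change of 0.41. Cxcr4, the receptor of the marrow chemokine CXCL12, had 124, 122 and 131 CPM in Perinatal BM and 73.0, 83.9 and 91.0 CPM in E16.5 FL. The groups did not overlap (log2 fold change 0.60, SE 0.12, adjusted p = 0.00082; 0.36 with loess, adjusted p = 0.04), and the call was lost when genes were assigned within 20 kb. Of its 11 distal regions 2 rose. One of them (chr1:128614708-128615490) had 56.3, 48.3 and 58.0 CPM in Perinatal BM and 19.2, 36.6 and 32.0 CPM in E16.5 FL (0.89), and the other (chr1:128612967-128613477), at 1.44, kept its call with loess. Over the stages its distal sum averaged 65.1 ± 3.7 CPM (E12.5 FL) and then 118 to 139.5 CPM in all marrow groups.

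Itga4, the alpha chain of the integrin VLA-4, had 57.8, 56.4 and 53.2 CPM in Perinatal BM and 30.5, 39.8 and 38.1 CPM in E16.5 FL (log2 fold change 0.63, adjusted p = 0.0074), a call kept with loess and lost without E16.5 FL 1. Rgs2, a brake on G protein signalling, rose by 0.66 and kept its call with loess. S1pr1, the receptor of sphingosine-1-phosphate, rose by 0.51 and lost its call with loess and with assignment within 20 kb. Cdh2, N-cadherin, was the member that fell (-0.88, named after its values were seen). Over gene ends 7 of 18 rose, beside 24.4% of all genes, and 0 fell, with none called with loess, where edgeR adjusted p was 0.14 for Rgs1, 0.13 for Rgs2, 0.26 for Cxcr4 and 0.21 for S1pr1.

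**Figure D3:**
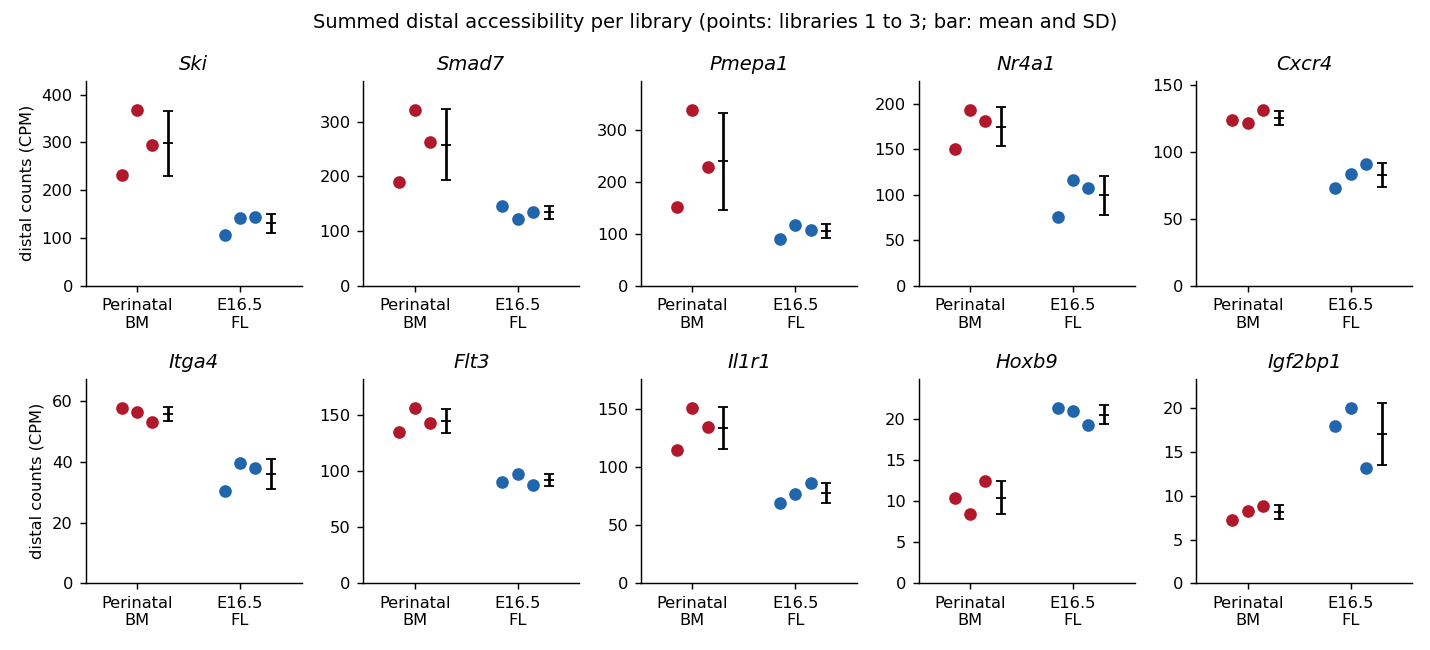
Summed distal accessibility (vertical axes, CPM scaled by TMM) of 10 genes in Perinatal BM (red, left) and E16.5 FL (blue, right), with a point per library and bars of mean and SD (n = 3). Ski, Smad7, Pmepa1, Nr4a1, Cxcr4, Itga4, Flt3 and Il1r1 are higher in every Perinatal BM library, and Hoxb9 and Igf2bp1 are lower.

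Of the JAK-STAT genes, which carry cytokine signals, 2 of 16 rose over distal counts, beside 9.11% of all genes, and 6 of 13 over gene ends, beside 24.4%, with 0 lower in either; with loess the counts were 2 higher and 1 lower, and 2 and 0. Bcl3, an atypical IkB protein induced by cytokines, had 121, 162 and 139.9 CPM over distal regions in Perinatal BM and 71.5, 92.7 and 75.3 CPM in E16.5 FL (log2 fold change 0.83, SE 0.13, adjusted p = 9.3e-05). Its gene-end count, from 1 region whose window is printed above, was 14.5, 34.5 and 15.97 CPM in Perinatal BM and 8.84, 6.26 and 8.80 CPM in E16.5 FL (1.47, SE 0.26, adjusted p = 4.4e-05). Both calls held with loess and without any single library. The gene ends of Socs3 (0.88), a feedback inhibitor of cytokine receptors, and Osm (0.80), the cytokine oncostatin M, rose with TMM and were not called with loess (adjusted p = 0.060 for Socs3 and 0.088 for Osm). Of 19 interferon response genes, 1 of 11 rose over distal counts and 5 of 16 over gene ends, beside 9.11% and 24.4% of all genes, and none with loess.

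NF-kB and inflammation genes rose in 4 of 18 over distal counts, beside 9.11% of all genes, and in 10 of 16 over gene ends, beside 24.4%, with 0 lower in both; with loess the counts were 1 higher and 1 lower, and 1 and 0. Their median log2 fold change was 0.10 over distal counts, beside -0.03 over all genes, and 0.52 over gene ends, beside 0.22. Il1r1, the interleukin-1 receptor, had 115, 151 and 134 CPM in Perinatal BM and 69.3, 76.6 and 86.3 CPM in E16.5 FL over distal regions (log2 fold change 0.79, SE 0.14, adjusted p = 0.00022; 0.54 with loess). Cxcl2, a neutrophil chemokine, had 21.8, 31.2 and 36.7 CPM at its gene end in Perinatal BM and 14.2, 14.5 and 11.7 CPM in E16.5 FL (1.15, SE 0.23, adjusted p = 0.0002; 0.94 with loess). These 2 were the calls that held with loess. Nfkb1 (0.49) rose over distal counts with TMM, a call lost without E16.5 FL 1 or Perinatal BM 2, and Birc3 (0.83) rose over gene ends, a call lost without Perinatal BM 2.

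Genes of sterol and fatty acid synthesis rose at their gene ends in 8 of 16, beside 24.4% of all genes, and fell in 0, with a median log2 fold change of 0.43 beside 0.22 over all genes, and over distal counts in 2 of 16, beside 9.11%. None was called with loess, where the gene-end median was 0.04. Hmgcs1, the synthase that makes HMG-CoA, had 124, 137 and 92.3 CPM in Perinatal BM and 47.7, 66.1 and 68.5 CPM in E16.5 FL (log2 fold change 0.96, SE 0.17, adjusted p = 4.5e-05; 0.43 with loess, adjusted p = 0.051). The libraries of the groups did not overlap. Idi1 (0.82), Cyp51 (0.86) and Lss (0.84), later enzymes of cholesterol synthesis, rose with TMM without dependence on any single library. Glycolysis and hypoxia genes rose in 7 of 14 over gene ends, beside 24.4% of all genes, and in 4 of 14 over distal counts, beside 9.11%, with 0 lower. With loess 0 rose and 1 fell over gene ends, and 1 rose and 0 fell over distal counts. Hk2, a hexokinase, rose by 0.88 at its gene ends (0.41 with loess, adjusted p = 0.051), and Egln3, a prolyl hydroxylase of the HIF factors, by 0.65 over distal counts, a call kept with loess but lost without E16.5 FL 1. Circadian and glucocorticoid genes rose in 7 of 16 over gene ends, beside 24.4% of all genes, led by Bhlhe40 (0.83) and Per2 (0.76). Over distal counts 2 of 17 rose and 2 fell, beside 9.11% and 4.26%, and none was called in either view with loess.

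Genes of the fetal stem cell program were called in both directions. Over distal counts 1 of 15 rose and 2 fell, beside 9.11% and 4.26% of all genes, and over gene ends 3 of 14 rose and 1 fell, beside 24.4% and 1.93%. With loess 0 rose and 0 fell over distal counts, and 1 rose and 2 fell over gene ends. Igf2bp1, a fetal RNA-binding protein, had 8.42, 8.81 and 15.2 CPM over gene ends in Perinatal BM and 33.4, 18.03 and 20.5 CPM in E16.5 FL (log2 fold change -1.15, SE 0.28, adjusted p = 0.0016; -1.07 with loess, adjusted p = 0.024). The groups did not overlap, but the call was lost without E16.5 FL 1. Over distal regions Igf2bp1 had 7.26, 8.26 and 8.87 CPM in Perinatal BM and 17.9, 20.03 and 13.2 CPM in E16.5 FL (-1.06, adjusted p = 0.016, and adjusted p = 0.06 with loess), a call lost without E16.5 FL 1, E16.5 FL 2 or Perinatal BM 2. In 1w BM against E12.5 FL its gene-end log2 fold change was -2.94, and its level in 1w BM was 3.78 ± 2.6 CPM.

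Lin28b, Hmga2, Igf2bp2 and Igf2bp3 did not pass over distal counts. Lin28b, the fetal RNA-binding protein that blocks let-7, had 15.98, 20.01 and 24.6 CPM in Perinatal BM and 20.4, 15.8 and 21.5 CPM in E16.5 FL (log2 fold change 0.07, adjusted p = 0.86). Hmga2, a chromatin protein of fetal stem cells, was at 0.00 (adjusted p = 0.99), Igf2bp2 at 0.28 (adjusted p = 0.20) and Igf2bp3 at -0.03 (adjusted p = 0.92). Plagl1, an imprinted zinc finger gene, moved apart in the views: over distal counts it fell (-0.997, adjusted p = 0.012, and 0.053 with loess) and over its gene end it rose, with 11.3, 21.1 and 10.9 CPM in Perinatal BM and 7.37, 8.51 and 7.34 CPM in E16.5 FL (0.93, adjusted p = 0.0079). Both calls were lost without Perinatal BM 2, and the distal one without E16.5 FL 2. Summed over 4 distal regions Arid3a had 42.7, 89.2 and 80.1 CPM in Perinatal BM and 44.2, 36.3 and 45.7 CPM in E16.5 FL (0.76, adjusted p = 0.0052), so the groups overlapped in Perinatal BM 1, and the call was lost with loess and without Perinatal BM 2.

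Hox genes, which set position along the body axis and are used again in blood stem cells, had 0 higher calls in either view, 1 lower of 5 over distal counts, beside 4.26% of all genes, and 2 lower of 12 over gene ends, beside 1.93%, with medians of -0.30 and -0.17. With loess 0 were higher and 1 was lower in each view. The gene-end count of Hoxa5, from 1 region whose window is printed above, was 10.5, 7.34 and 8.11 CPM in Perinatal BM and 14.0, 22.5 and 19.6 CPM in E16.5 FL (log2 fold change -1.13, SE 0.31, adjusted p = 0.0042; -1.07 with loess, adjusted p = 0.036). In the edgeR fit of single regions its adjusted p was 0.017. In 1w BM against E12.5 FL it was at -0.37 (adjusted p = 0.33). Hoxb9 had 10.5, 8.44 and 12.4 CPM over distal regions in Perinatal BM and 21.4, 21.0 and 19.3 CPM in E16.5 FL (-0.99, adjusted p = 0.0051; -0.87 with loess). Its groups stood far apart, yet the call was lost without Perinatal BM 2 and with assignment within 20 kb.

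Of stem and progenitor surface genes, Flt3, the receptor of lymphoid-primed progenitors, had 135, 156 and 143 CPM over distal regions in Perinatal BM and 90.1, 97.7 and 87.3 CPM in E16.5 FL (log2 fold change 0.66, SE 0.13, adjusted p = 0.00054; 0.40 with loess). Cd34, the sialomucin of progenitors, had 157, 155 and 129 CPM in Perinatal BM and 88.2, 93.7 and 99.0 CPM in E16.5 FL (0.65, adjusted p = 0.00076; 0.38 with loess). In both genes each Perinatal BM library was above each E16.5 FL library, without dependence on any single one. In all, 2 of 15 rose and 1 fell over distal counts, beside 9.11% and 4.26% of all genes, the loss being Tek (-0.91), an angiopoietin receptor, which was not called with loess or without E16.5 FL 1, Perinatal BM 2 or Perinatal BM 3. Stem cell transcription factors rose in 2 of 17 over distal counts and 4 of 18 over gene ends, shares near the 9.11% and 24.4% of all genes, with 0 lower. With loess 0 rose in either view and 1 fell over gene ends. Over distal counts Meis1 was at 0.32 (adjusted p = 0.054), Gata2 at 0.35 (adjusted p = 0.083), Runx1 at 0.27 (adjusted p = 0.11), Hlf at 0.16 (adjusted p = 0.45) and Mecom at 0.12 (adjusted p = 0.47). Etv6 (0.72) rose at its gene ends but not with loess.

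Of the lineage lists, lymphoid genes rose in 3 of 14 over distal counts, beside 9.11% of all genes, with 0 lower, and in 2 with loess. Dntt, the terminal transferase of early lymphoid cells, had 81.6, 85.7 and 106 CPM in Perinatal BM and 42.7, 51.3 and 67.7 CPM in E16.5 FL (log2 fold change 0.75, adjusted p = 0.00086; 0.54 with loess). Monocyte and macrophage genes rose in 3 of 16 and, with loess, in 1. Cx3cr1, the fractalkine receptor, had 42.1, 68.8 and 56.0 CPM in Perinatal BM and 27.5, 30.8 and 34.7 CPM in E16.5 FL (0.85, adjusted p = 0.00065; 0.70 with loess). Megakaryocyte genes rose in 3 of 14 and erythroid genes in 0 of 10, with 0 lower in either, while with loess 0 megakaryocyte genes were called and 1 erythroid gene was higher and 1 lower. Over gene ends lymphoid genes rose in 1 of 13, monocyte genes in 2 of 16 and megakaryocyte genes in 2 of 13. Erythroid genes rose there in 4 of 11, and 0 fell in these lists, beside 24.4% and 1.93% of all genes. With loess 1 megakaryocyte gene was higher at gene ends, and 1 lymphoid and 1 erythroid gene were lower. Pf4, the platelet chemokine, had 20.9, 26.8 and 21.5 CPM at its gene end in Perinatal BM and 7.86, 7.76 and 17.4 CPM in E16.5 FL (1.08, adjusted p = 0.00084; 0.96 with loess). Over distal counts neutrophil genes rose in 0 and fell in 1 of 16, beside 9.11% and 4.26% of all genes, and with loess 0 were called. The loss was Camp, which rests on 1 region with 0.581, 0 and 0.507 CPM in Perinatal BM and 1.47, 4.01 and 3.42 CPM in E16.5 FL and lost its call without Perinatal BM 2. At gene ends 1 of 12 neutrophil genes rose and 1 fell, beside 24.4% and 1.93% of all genes, and with loess 1 rose and 0 fell. Mmp8, a neutrophil collagenase, rose by 1.21 (adjusted p = 0.00017; 1.10 with loess), a call lost with a 500 bp window. T and NK genes rose in 1 and fell in 0 of 12 over distal counts, and rose in 0 and fell in 2 of 12 over gene ends. Mast cell and basophil genes rose in 0 and fell in 1 of 8 over distal counts, and rose in 1 and fell in 0 of 5 over gene ends. Of all genes 9.11% rose and 4.26% fell over distal counts, and 24.4% and 1.93% over gene ends. With loess 1 T and NK gene was lower and 1 mast cell gene higher, both over distal counts.

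Genes of the lists for other tissues were called as well, at low levels in part. Hnf4a, a hepatocyte transcription factor, was the 1 hepatocyte gene of 9 that rose over distal counts, with 42.4, 50.7 and 51.4 CPM in Perinatal BM and 23.6, 30.1 and 27.4 CPM in E16.5 FL (log2 fold change 0.84, adjusted p = 0.0014; 0.74 with loess). Endothelial genes had 0 calls of 16 over distal counts and 1 lower of 16 over gene ends, Cdh5 (-1.70), which turned to 0.11 with a 2 kb window and lost its call without E16.5 FL 2. Stroma and bone genes had 1 higher and 2 lower of 19 over distal counts, and genes chosen as silent in blood 2 higher and 1 lower of 12. Of all genes 9.11% rose and 4.26% fell over distal counts, and 24.4% and 1.93% over gene ends. With loess the distal calls were 1 higher in the hepatocyte list, 1 lower in the stroma list and 1 higher in the silent list, with 0 in the endothelial list.

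Cell cycle and replication genes rose in 4 of 19 over gene ends and in 1 of 12 over distal counts, where 1 fell, with higher shares near the 24.4% and 9.11% of all genes. With loess 0 rose and 1 fell over gene ends and none was called over distal counts. Ccna2, cyclin A2, rose by 0.56 at its gene end and was at 0.07 with loess. Cyclin inhibitors and quiescence genes rose in 8 of 16 over gene ends and fell in 1, beside 24.4% and 1.93%, and with loess 1 rose and 1 fell. The loss was at an end of Cdkn1a, the cyclin-dependent kinase inhibitor p21, in a region 6641 bp from the start (chr17:29100410-29101095), with 1.16, 3.49 and 2.03 CPM in Perinatal BM and 4.67, 8.01 and 7.34 CPM in E16.5 FL (log2 fold change -1.49, adjusted p = 0.0032; -1.34 with loess). In 1w BM against E12.5 FL its gene-end count was higher (0.97, adjusted p = 0.037). In the edgeR fit of single regions that change was not called (adjusted p = 0.070). Chromatin genes rose in 6 of 18 over gene ends and fell in 1, beside 24.4% and 1.93%, but with loess 0 rose and 2 fell. Cbx7, a Polycomb subunit, fell (-1.36, adjusted p = 0.0019; -1.26 with loess) over 3 gene-end regions that lay 10750, 15474 and 17823 bp from a start. Of these 1 was called, at 0, 0.367 and 0 CPM in Perinatal BM and 3.44, 1.00 and 1.96 CPM in E16.5 FL, but not with loess (adjusted p = 0.26). A region over a start of Cbx7 had a log2 fold change of -0.07 (adjusted p = 0.90). Uhrf1, the cofactor of maintenance methylation, rose by 0.74 with TMM (0.32 with loess, adjusted p = 0.14).

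Of 10013 genes with both kinds of regions, 345 rose in both views, 38.5% of the 897 that rose over distal counts and 13.3% of the 2585 that rose over gene ends. Lower in both were 18, which is 4.11% of 438 and 10.0% of 180. In 87 genes distal counts fell while gene ends rose, and in 4 the reverse held. Of all genes tested in each view, 24.4% rose and 1.93% fell over gene ends, and 9.11% rose and 4.26% fell over distal counts. Part of the overlap is therefore the general share of calls, and overlap beyond it was not tested. With loess 21 genes were higher and 16 lower in both. Across genes, which are not independent, the log2 fold changes of the views correlated weakly (Pearson r = 0.136, 0.145 with loess), given as a description. Bcl3, Skil, Pmepa1, Kcnn4 and Ctla2b were called higher in both views with both scalings, and Malat1, Sfi1, Duxf3, Rpl38 and Tead1 lower; these were named after their values were seen.

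**Figure D4:**
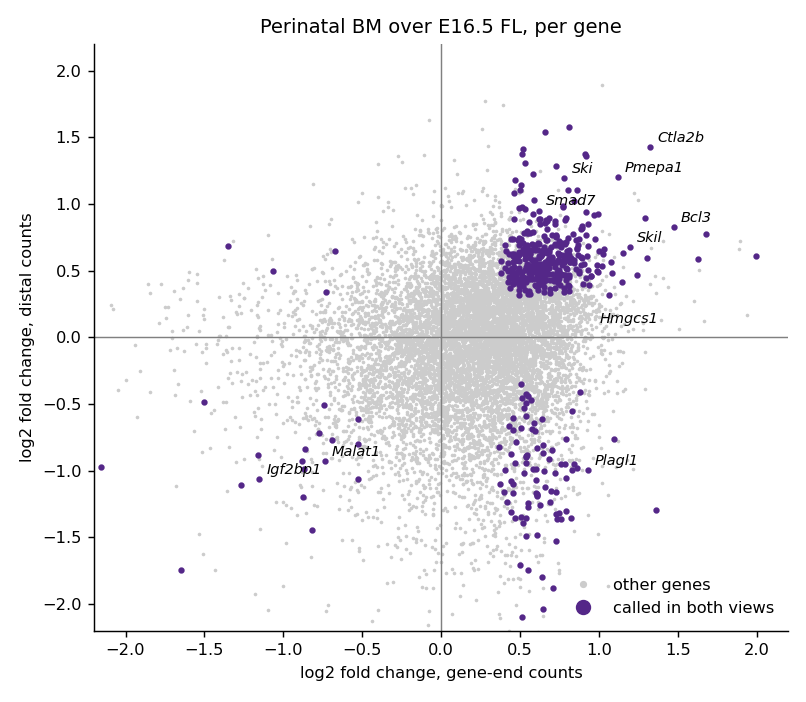
Log2 fold change of Perinatal BM over E16.5 FL per gene over gene-end counts (horizontal axis) and distal counts (vertical axis), with genes called in both views in purple and other genes in grey (35 genes lie outside the axes). The upper right holds the 345 genes higher in both views, and the lower right the 87 with lower distal and higher gene-end counts.

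Set among all stages, the members took different courses. The distal sum of Ski was 141 ± 6.4 CPM in E12.5 FL, 131 ± 20 CPM in E16.5 FL, 298 ± 68 CPM in Perinatal BM and 366.5 to 651 CPM in later marrow. Cxcr4 reached its marrow level in Perinatal BM. Igf2bp1 at its gene ends was at 33.7 ± 6.9 CPM in E12.5 FL, 24.0 ± 8.2 CPM in E16.5 FL, 10.8 ± 3.8 CPM in Perinatal BM and 2.68 to 5.84 CPM later. The Cdk8 region was at 492 ± 30 CPM in E16.5 FL, 229 ± 46 CPM in Perinatal BM and 172 to 256 CPM later. H3f3b beyond its end was low in Perinatal BM and 1w BM, and the Btd region was high in Perinatal BM among the liver and marrow groups. Neighbouring stages were not tested against each other here beyond Perinatal BM and E16.5 FL.

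**Figure D5:**
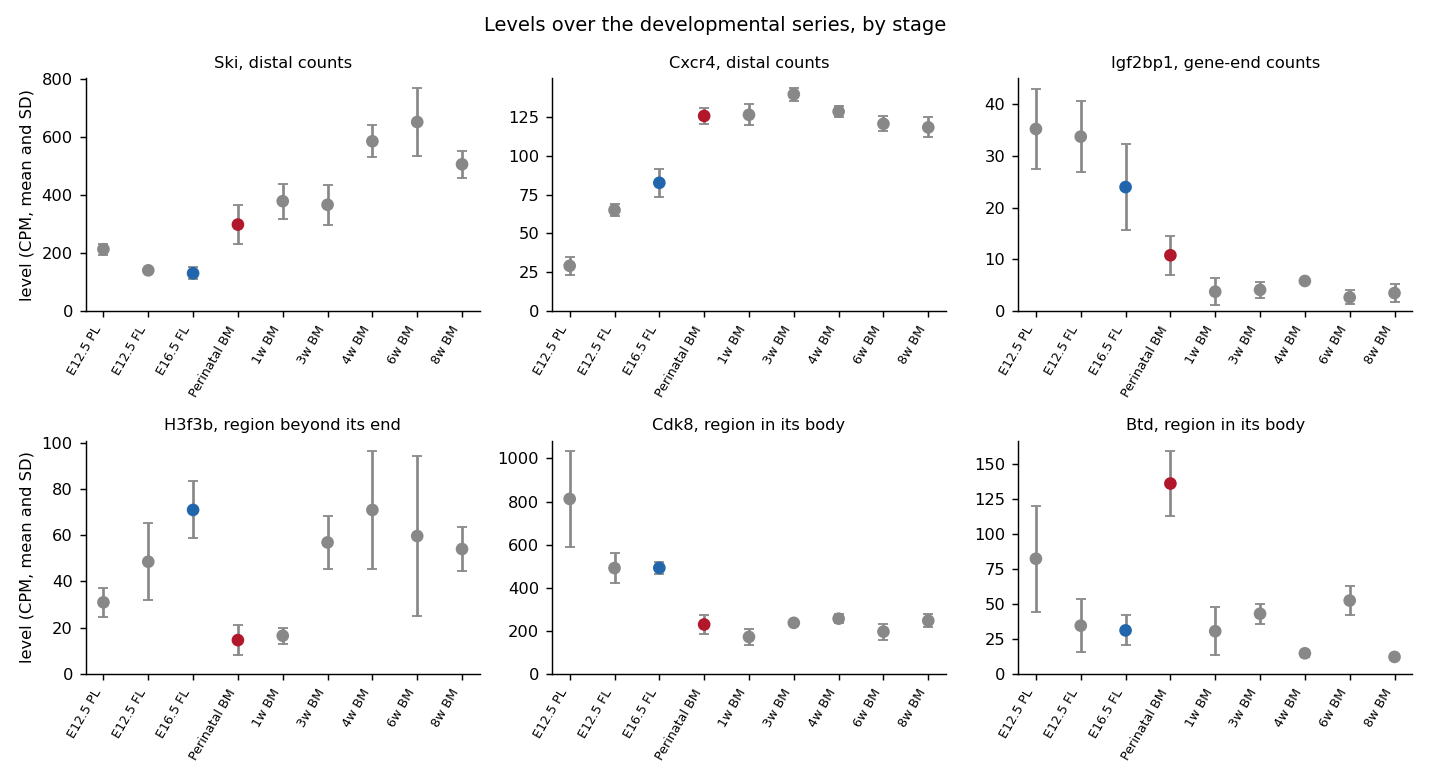
Level by stage (vertical axes, CPM scaled by TMM, mean and SD, n = 3 or 2 for 3w BM) for 6 genes or regions over 9 groups in order of stage (horizontal axes), with E16.5 FL in blue and Perinatal BM in red. Ski and Cxcr4 are higher and Igf2bp1 and Cdk8 lower in Perinatal BM and in all later groups than in E16.5 FL. H3f3b and Btd in later marrow lie nearer to E16.5 FL than Perinatal BM does, H3f3b in 1w BM only slightly so.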

How the data were processed

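ATAC-seq of LSK cells was used from 6 libraries, within a table of 26. Reads were trimmed with Trim Galore and peaks were called with MACS2, in mouse build mm10, per the submitters' processing notes, which also name DiffBind, HOMER and deepTools. The aligner, the Tn5 shift and the removal of duplicates are not given in the sources used here. The authors deposited raw counts per region over a common region set, and 0 columns of that table matched no sample. The peak lists deposited by the authors hold, for each library, a score, a fold enrichment, and −log10 p and −log10 q values, and they were used only to count peaks.

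Counts were fitted across all regions and 9 groups of 26 libraries with edgeR 4.0.16 in R 4.3.3 (TMM, filterByExpr with a minimum count of 10, quasi-likelihood F test). Sums per gene over distal regions and over gene-end regions were each fitted apart in the same way. Every adjusted p is a Benjamini-Hochberg value over all rows of its own edgeR fit, of regions or of gene sums, unless another test is named. CPM values were computed here from the counts. Single values per library were compared by a two-sided exact permutation test, which 3 against 3 libraries limit to p = 0.1 or more. Intervals and depth cover counting error only. Genes are named spans of RefSeq GRCm38.p6. A gene-end region lies within 1 kb of either end of one, and distal regions were given to a span within 50 kb.

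The members and gene lists were chosen with earlier results of these data known. Regions were named by the smallest p among calls whose groups do not overlap, whose level exceeds the median of all regions and whose log2 fold change is 1 or more in size, 10 distal and 6 gene-end regions in each direction. Genes were named by the largest change, 12 over distal counts (with at least 3 regions) and 8 over gene-end counts in each direction, and at most 4 called members per list and view by p, beside 17 fixed genes. Some genes that this rule names are not reported here. The alternatives were DESeq2 1.42.0, other scalings including cyclic loess (limma 3.58.1, span 0.3, 3 iterations), other filters, windows and library sets, and a replicate block. The scripts were tested on simulated data, where 22 of 100 regions changed 2-fold and 73 of 100 changed 4-fold were called, with 4 false calls. A region that was not called may therefore still have changed. Python 3.11.15, pandas 2.3.3, SciPy 1.17.1, matplotlib 3.10.9 and bedtools 2.31.1 were also used.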

Additional observations from a re-analysis of the deposited data

Results flagged for a closer look

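The gene-end count of Cdkn1a, the gene of the kinase inhibitor p21, rests on 1 region and changed in opposite directions in the liver and marrow pairs. It had 1.16, 3.49 and 2.03 CPM in Perinatal BM and 4.67, 8.01 and 7.34 CPM in E16.5 FL, a log2 fold change of -1.49 (adjusted p = 0.0032). It had 5.79, 4.98 and 6.44 CPM in 1w BM and 4.76, 0.702 and 3.46 CPM in E12.5 FL, a log2 fold change of 0.97 (adjusted p = 0.037). Both adjusted p-values come from the edgeR fit of gene-end counts per gene. In the edgeR fit of single regions they were 0.00998 and 0.070, so the second change was not called there. Every library of the first pair moved one way and every library of the second pair the other way, and the difference between the pairs was not tested. It was the 1 result of this kind among the genes and regions named by rule, and its levels are low.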

How the results depend on the processing

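Scaling and single libraries moved the counts of calls most. With total counts in place of TMM, distal regions had 1688 higher calls, gene-end regions 1075 higher and 316 lower, genes by distal counts 452 higher and 1318 lower, and genes by gene-end counts 1492 higher and 501 lower. With cyclic loess the counts were 825 higher and 516 lower for distal regions, 92 and 317 for gene-end regions, 471 and 338 for genes by distal counts, and 293 higher for genes by gene-end counts. With the classes scaled apart, gene-end regions had 1571 higher and 685 lower calls, and genes by gene-end counts 1452 and 566. The 6 libraries fitted alone gave 2416 distal and 1026 gene-end regions higher, 981 genes lower by distal counts and 1588 higher by gene-end counts. Libraries thinned to the smallest total gave 1998 and 537 distal calls, 1425 and 88 gene-end calls, 710 and 313 genes by distal counts, and 151 genes lower by gene-end counts. DESeq2 gave 563 distal regions lower. Gene-end regions with lower accessibility numbered 270 with a 2 kb window, 118 with 500 bp and 74 within 1 kb of a RefSeq start, the last a choice made after the data were seen, as was loess for 1w BM against E12.5 FL. The share of distal gains that were also higher in 1w BM was 92.8% with total counts, 94.1% with DESeq2 size factors and 89.8% with loess.

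Leaving out 1 library at a time gave 1484 to 3424 distal regions higher and 377 to 1034 lower, 832 to 2657 gene-end regions higher and 45 to 185 lower, 390 to 1089 genes higher and 128 to 464 lower by distal counts, and 1542 to 3568 higher and 102 to 302 lower by gene-end counts. The lowest counts came without E16.5 FL 1 or Perinatal BM 2. The difference in the gene-end share of counts ran between 2.71 and 5.00 percentage points.

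Replicate numbers did not pair the libraries: same-numbered libraries correlated at 0.037, 0.035 and -0.025 in their deviations from the group means. A replicate block, fitted on the 6 libraries alone, gave 2248 distal regions and 903 gene-end regions higher, 1071 genes lower by distal counts and 1237 genes higher by gene-end counts. The same 6 libraries without the block gave 2416, 1026, 981 and 1588.

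Values that turned sign were Ly6c2 by distal counts (0.13 within 20 kb), Nr4a3 by distal counts (-0.22 with a 2 kb window), Cdh5 by gene-end counts (0.11 with a 2 kb window) and, by gene-end counts with loess, Nr1d2 (-0.0050), Relb (-0.013), E2f1 (-0.12) and Ccne1 (-0.090). The causes were not tested. Of 236 single genes and regions, 104 lost their call with loess, 72 without E16.5 FL 1 and 69 without Perinatal BM 2. With the 6 libraries alone 37 lost it, and with the replicate block on those 6 libraries 44 did.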
